A study of Mus musculus with 32 samples.

Results

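The nuclear-encoded respiratory chain genes are the nuclear genes for subunits and assembly factors of mitochondrial complexes I to V. They were taken from the deposited gene list by symbol, as every name that starts with Ndufa, Ndufb, Ndufc, Ndufs, Ndufv, Sdh, Uqcr, Cox4, Cox5, Cox6, Cox7, Cox8 or Atp5 and does not end in -ps. The rule gave 97 of 31053 listed genes, 36 of complex I, 4 of complex II, 8 of complex III, 20 of complex IV, 16 of complex V and 13 assembly or associated factors. Atp5o is listed under 2 gene IDs, so the 97 entries carry 96 symbols. In the cells assigned to a type, 95 entries had at least 1 UMI (a counted RNA molecule). Cox7b2 and the second Atp5o entry had 0, and Cox8c had 1.

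Complexes I to IV pass electrons from nutrients to oxygen and pump protons across the inner mitochondrial membrane. Complex V, the ATP synthase, uses the proton gradient to make ATP. Most subunits are encoded in the nucleus and imported, while a few core subunits are encoded by mitochondrial DNA. Several complex IV subunits exist as a broadly expressed form and a form restricted to muscle, testis, lung or other tissues. In fat, the chain is best known from the heat production of brown adipocytes, which, like other mature adipocytes, are removed when stromal vascular cells are prepared.

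The cells were the stromal vascular fraction of mouse epididymal fat, profiled by droplet single-cell RNA sequencing of 3′ ends (10x Genomics v3). The 4 groups were CD169-DTR mice on high fat diet (HFD), C57BL/6 wild-type (WT) mice on HFD, CD169-DTR mice on normal diet (ND) and C57BL/6 WT mice on ND. Diets lasted 16 weeks, and mice of all 4 groups, WT included, received diphtheria toxin for 7 days. In CD169-DTR mice the toxin receptor is meant to be carried by cells that express CD169, a surface lectin of tissue-resident macrophages, so that the toxin removes them. CD45+ and CD45- cells were sorted apart, leaving out much of the F4/80hi and Ly6Chi cells, and combined in equal parts. Each group was 1 library; the number of mice per library is not stated in the labels. Differences between groups therefore carry no test, and their 95% intervals cover counting error only. Differences between cell types were tested with the 4 libraries as replicates, although these differ in diet and label.

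The libraries held 33390225 to 64766718 UMIs, and 19340 cells passed filters of at least 300 genes, at most 10% mitochondrial UMIs and no doublet call. Of these, 15668 (81.0%) were assigned to a type by marker genes, none of them a respiratory chain gene. At least 20 cells in at least 3 libraries were found for 13 types, which carry "-like" in their names because they rest on markers. All markers of each type were higher in it than in the others, which is no independent check because the same markers assigned the cells. Siglec1, the gene of CD169, went against the labels. Macrophage-like cells had 13.5 CPM (UMIs of the gene per 1000000 UMIs of the cell type) in the library labelled HFD-DTR and 5.15 in that labelled HFD-WT. On ND they had 18.1 CPM (89 UMIs) in the library labelled DTR and 0.557 CPM (1 UMI) in that labelled WT. Libraries are therefore named by label throughout. The main cluster of the fibroblast-like cells was a different one in each library and held 75.2% of them in HFD-DTR, 70.9% in HFD-WT, 54.7% in ND-DTR and 63.1% in ND-WT. The main cluster of the macrophage-like cells was cluster 6 in HFD-DTR (47.8% of them), 7 in HFD-WT (35.9%), 3 in ND-DTR (61.7%) and 7 in ND-WT (56.7%). For both types the group and the preparation of its library cannot be told apart. Across libraries, 266 barcode sequences (1.40%) occurred more than once.

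Promoters are shown for members of 2 isoform pairs of complex IV, because the widest differences between cell types lay in such pairs. Cox6a1 is the broadly expressed partner of the muscle isoform Cox6a2, and Cox6b1 that of the testis isoform Cox6b2. RefSeq windows from 250 bases before to 50 after the start (GRCm38.p6) were found for 80 of the 96 symbols, 85 windows in all. Sequences run 5′ to 3′ along the strand of the gene, and capitals mark matches on either strand to GCGCATGCG (NRF1, a factor known to control respiratory genes) or GGGCGG (SP1).
Cox6a1 (chr5:115348909-115349208, minus strand): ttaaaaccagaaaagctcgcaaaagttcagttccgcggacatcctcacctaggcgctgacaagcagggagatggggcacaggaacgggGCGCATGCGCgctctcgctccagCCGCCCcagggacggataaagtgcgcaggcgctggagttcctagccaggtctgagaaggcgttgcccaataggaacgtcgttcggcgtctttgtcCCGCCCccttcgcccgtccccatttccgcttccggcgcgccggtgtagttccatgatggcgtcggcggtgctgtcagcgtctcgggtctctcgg
Cox6b1 (chr7:30626065-30626364, minus strand): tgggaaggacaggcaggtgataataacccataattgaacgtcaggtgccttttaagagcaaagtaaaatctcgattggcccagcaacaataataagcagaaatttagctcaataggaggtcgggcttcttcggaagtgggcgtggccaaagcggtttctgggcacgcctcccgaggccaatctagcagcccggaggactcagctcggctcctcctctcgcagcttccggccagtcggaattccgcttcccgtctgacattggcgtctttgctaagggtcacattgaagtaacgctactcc
Cox6b2 (chr7:4753045-4753344, minus strand): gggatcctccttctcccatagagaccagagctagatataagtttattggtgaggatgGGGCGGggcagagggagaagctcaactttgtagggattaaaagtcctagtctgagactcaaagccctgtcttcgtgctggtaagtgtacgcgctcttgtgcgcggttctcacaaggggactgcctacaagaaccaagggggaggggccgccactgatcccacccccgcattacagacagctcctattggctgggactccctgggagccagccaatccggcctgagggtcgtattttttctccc
Of the 5 motifs searched, NRF1 and SP1 were found in the Cox6a1 window, none in the Cox6b1 window and SP1 in the Cox6b2 window. Among 81 windows of broadly expressed members, 10 (12.3%) held GCGCATGCG, against 2.35% of the windows of 21263 protein-coding starts. AANATGGCG (YY1) was in 12 (14.8%) against 3.12%, and TCAAGGTCA (ERR) in 2 (2.47%) against 0.334%. CCGGAAGT (ETS) was in 5 (6.17%) against 5.15%, and GGGCGG in 38 (46.9%) against 46.2%. Of the 4 windows of restricted isoforms (Cox6b2, Cox7a1, Cox7b2 and Cox8b), 2 held GGGCGG and 0 held any of the other motifs. No window was found for Cox6a2, Cox4i2 or Ndufa4l2. Both strands were searched, matches may overlap, and a match describes letters and not binding.

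The 97 genes together made up 0.804% to 2.23% of the UMIs of a cell type in a library. One tag per molecule is counted at the 3′ end, so levels were not divided by gene length. NK-like cells had the highest mean summed level, 20579 ± 1159 CPM (SD, n = 4 libraries). Plasmacytoid dendritic-like cells followed with 19639 ± 1005 CPM (n = 3). T-like cells had 18340 ± 825, macrophage-like cells 18218 ± 854, type 2 conventional dendritic-like cells 17678 ± 1637 and type 1 conventional dendritic-like cells 17627 ± 924 CPM (n = 4 each), and these 4 types differed by less than their spread. Group 2 innate lymphoid-like cells had 15820 ± 721, mesothelial-like cells 15617 ± 1186, endothelial-like cells 15254 ± 804 (n = 3) and B-like cells 14656 ± 323 CPM, and neighbours in this order differed by less than the larger of their SDs. Migratory dendritic-like cells had 14328 ± 583 and fibroblast-like cells 13124 ± 1195 CPM. Neutrophil-like cells were lowest with 10434 ± 1854 CPM, and they were the lowest of the tested types in each of the 4 libraries.

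**Figure D1:**
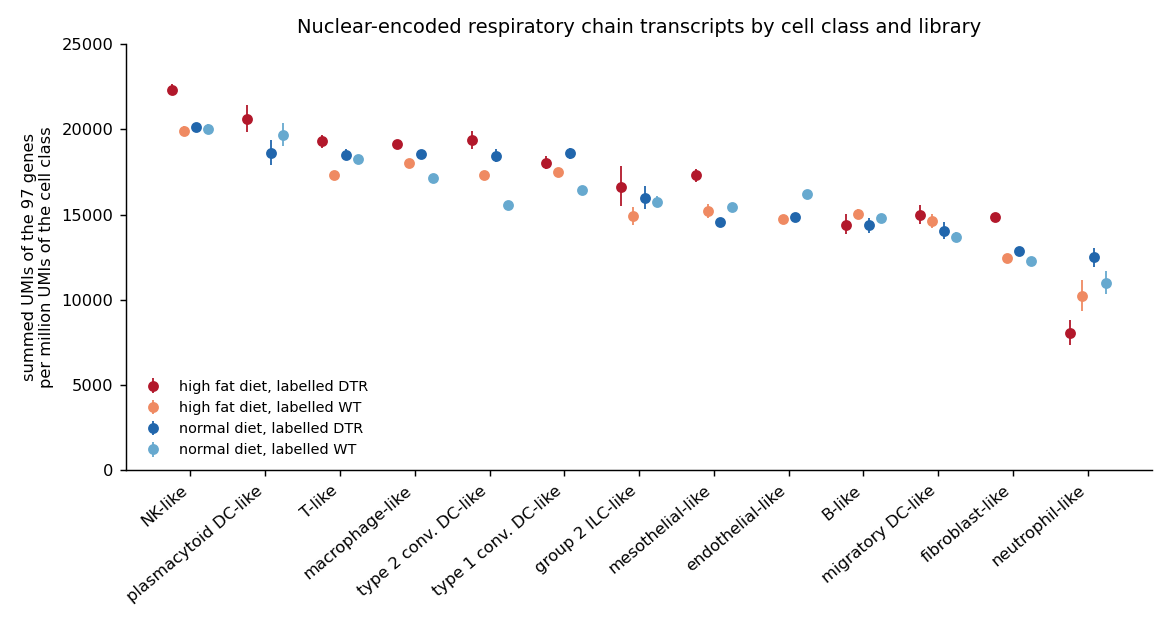
Summed level of the 97 genes (CPM) in 13 cell types, with 1 point per library and its 95% Poisson interval. NK-like cells lie between 19888 and 22311 CPM and neutrophil-like cells between 8038 and 12490.

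The order depends partly on what else fills the libraries of a cell type. With mitochondrial DNA-encoded and ribosomal protein genes left out of the totals, NK-like cells were again highest (27820 CPM) and neutrophil-like cells again lowest (11256 CPM). B-like cells then stood at 23122 CPM, level with type 2 conventional dendritic-like cells (23123) and above macrophage-like cells (21634).

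The most abundant member of each complex over all assigned cells was Ndufa13 for complex I (311 CPM), Sdhb for complex II (124), Uqcrh for complex III (378), Cox4i1 for complex IV (727) and Atp5e for complex V (430). Cox4i1 (ENSMUSG00000031818, chr8:120668222-120674207 of GRCm38, plus strand) is the common form of subunit 4, and NK-like cells had 1119 (HFD-DTR), 1017 (HFD-WT), 1020 (ND-DTR) and 1042 CPM (ND-WT). Fibroblast-like cells had 660, 560, 539 and 551 CPM in the same libraries, so the 2 types did not overlap. The complexes took similar shares of the summed level in most types. Complex I gave 31.7% in fibroblast-like and 22.1% in migratory dendritic-like cells. Complex IV gave 24.8% in fibroblast-like and 32.8% in migratory dendritic-like cells, and complex V gave 26.8% in endothelial-like and 32.4% in type 1 conventional dendritic-like cells.

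Each type was then set against the mean of the other 12, on the log scale, by edgeR's quasi-likelihood test on UMIs summed per type and library, with the library as a block. A gene was called at a Benjamini-Hochberg adjusted p under 0.05 over 11021 genes and a difference of at least 1.5-fold. Levels of the other types are given as the plain mean over those types. A type at or near 0 lowers the log-scale mean strongly. Neutrophil-like cells did so for the assembly factors Ndufaf2 and Sdhaf1, so higher calls of these genes in other types can rest partly on them. Of the 97 entries, 88 passed the filter on low counts. The others were Cox4i2 (375 UMIs), Cox7a1 (236), Cox8b (124), Cox8c, Cox7b2, the second Atp5o entry and the factors Sdhaf3 (1085), Ndufaf5 (891) and Atp5s (447). In at least 1 type 76 of the 88 (86.4%) were called, against 95.8% of all genes. A type called on average 16.5% of the 88, against 32.4% of all genes. Processed pseudogene copies that share reads with members were not separated, so single values can hold such reads.

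Neutrophil-like cells had the most calls. Of the 88 members 47 were lower and 2 higher, while 15.6% of all genes were lower and 13.5% higher. The median log2 fold change was −0.88 for the members and −0.66 for all genes. Lower calls fell in every complex, with 21 of 36 tested genes of complex I, 1 of 4 of complex II, 4 of 8 of complex III, 7 of 15 of complex IV, 10 of 15 of complex V and 4 of 10 factors. Ndufaf2, a complex I assembly factor, had 0 UMIs in all 4 libraries, against a mean of 20.5 CPM in the other types (edgeR adjusted p = 0.0020). Sdhaf1, an assembly factor for the iron-sulfur subunit of complex II, had 0 in HFD-DTR, HFD-WT and ND-WT and 6.23 CPM in ND-DTR, against a mean of 46.9 (adjusted p = 0.0029). Sdhaf4, another complex II factor, had 19.4 CPM in HFD-WT and 0 in the other libraries, against a mean of 21.5 (adjusted p = 0.011). The 2 higher members were Ndufb9, a complex I subunit, and Ndufaf7, a methyltransferase that acts in complex I assembly. Ndufb9 had 237 (HFD-DTR), 389 (HFD-WT), 324 (ND-DTR) and 334 CPM (ND-WT), against a mean of 205 (log2 fold change 0.62, SE 0.14, adjusted p = 0.00031). Ndufaf7 averaged 35.9 ± 16.5 against 13.5 CPM (adjusted p = 0.049), higher in 3 of 4 libraries. The 245 cells were shallow, with median depths of 786 to 1478 UMIs by library, and too few of them reached 1000 genes or 2000 UMIs for a test at matched depth. The count of lower members was 37 with DESeq2, 37 without HFD-DTR and 68 with types taken from clusters.

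Conventional dendritic-like cells had the most higher calls. In type 1 cells 22 of the 88 members were higher and 0 lower (all genes 20.5% and 9.85%), with a median log2 fold change of 0.44 against 0.04 for all genes. In type 2 cells 23 were higher and 1 lower (all genes 20.2% and 7.19%), with medians of 0.45 and 0.08. The shares called higher were close to the background and differed between settings. Without normalization factors 3 (type 1) and 2 (type 2) members were higher, with DESeq2 11 and 3, and with cells thinned to 2000 UMIs 13 and 8. Complex V gave 7 of 15 higher genes in each of the 2 types, and complex I gave 7 and 8 of 36. Ndufa6, a small complex I subunit of the LYR family (chr15:82350140-82354322, minus strand), had 433 (HFD-DTR), 357 (HFD-WT), 423 (ND-DTR) and 378 CPM (ND-WT) in type 1 cells (log2 1.47, SE 0.11, adjusted p = 1.20e-15). In type 2 cells it had 391, 323, 391 and 404 CPM in the same libraries (log2 1.37, SE 0.11, adjusted p = 3.37e-14). The next highest value of a tested type was 258 CPM, in macrophage-like cells of ND-WT, so the conventional dendritic-like cells did not overlap with the others. Atp5c1, the gamma subunit in the rotor of the ATP synthase, averaged 445 ± 40.6 in type 1 cells against 279 CPM in the other types (log2 1.09, SE 0.11, adjusted p = 1.12e-11). Ndufaf6, a complex I factor, averaged 10.2 against 5.52 CPM there. In type 2 cells Ndufb8, a complex I subunit, averaged 260 ± 48.4 against 181 CPM, and Ndufaf1, a complex I factor, 0.779 against 6.87 CPM (log2 −1.91, adjusted p = 0.015).

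**Figure D2:**
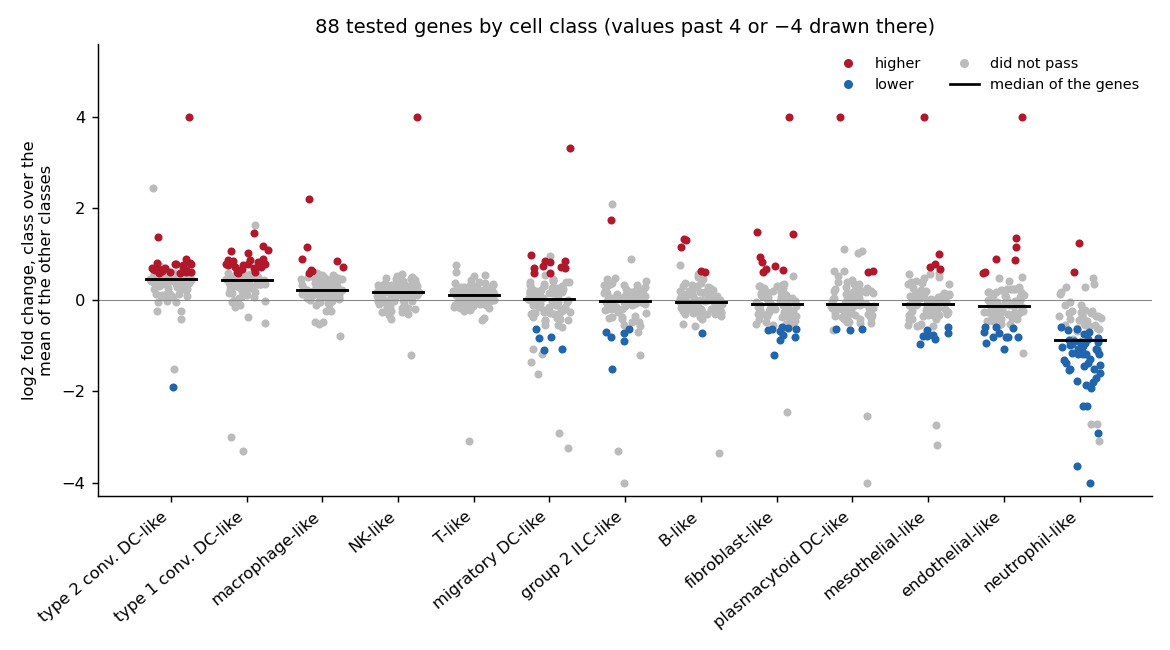
Log2 fold changes of the tested members (each type against the mean of the other types) by cell type, 1 point per gene, with higher and lower calls in red and blue, values past 4 drawn at 4, and a line at the median. The median is −0.88 in neutrophil-like cells and 0.44 and 0.45 in the 2 conventional dendritic types.

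Migratory dendritic-like cells had 11 members higher and 5 lower (all genes 17.7% and 9.98%), and the medians were 0.01 and −0.09. The lower members were all of complex I, while complex IV gave 5 of 15 higher ones. Sdhaf1 (chr7:30321406-30323895, minus strand) had 230 (HFD-DTR), 152 (HFD-WT), 137 (ND-DTR) and 165 CPM (ND-WT), against a mean of 32.8 in the other types (log2 3.32, SE 0.20, adjusted p = 3.53e-19). Cox5a, a complex IV subunit, averaged 444 ± 89.3 against 305 CPM, and Atp5g2, a gene of the ATP synthase c ring, 509 ± 55.7 against 398. The lowest were Ndufa5 (26.1 against 69.6 CPM), Ndufs3 (30.1 against 80.7) and Ndufs1 (13.7 against 32.3), subunits of the complex I arm that takes up electrons. The split differed between settings, with 6 higher and 9 lower with DESeq2, 2 and 27 without normalization factors and 5 and 14 in thinned cells. The Sdhaf1 level also differed widely among the lymphoid types. Group 2 innate lymphoid-like cells had 171 (HFD-DTR), 55.3 (HFD-WT), 103 (ND-DTR) and 53.9 CPM (ND-WT), log2 1.74 (SE 0.28, adjusted p = 2.76e-06).

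In these innate lymphoid cells 1 member, Sdhaf1, was higher and 6 were lower (all genes 13.3% and 9.68%). The lowest were Sdhaf2, the factor that attaches FAD to complex II (5.38 against 25.5 CPM), Sdhd, a membrane anchor of complex II (29.1 against 55.2), and Ndufv2, a complex I subunit (46.9 against 90.6). B-like cells had 5 higher and 1 lower (20.3% and 7.69%), of which 4 and 1 were factors. Sdhaf1 averaged 56.6 ± 17.1 against 42.4 CPM (log2 1.33, SE 0.23, adjusted p = 6.35e-06), Ndufaf4 29.4 ± 4.4 against 17.8 and Ndufaf1 11.8 ± 9.90 against 5.95. The lower one was Ndufaf7, 8.10 against 15.8 CPM. NK-like cells had 1 higher, Cox6a2, and 0 lower (21.2% and 11.5%), and T-like cells had 0 of either (20.5% and 5.68%). Plasmacytoid dendritic-like cells had 3 higher and 3 lower (11.1% and 7.02%). Beside Cox6a2, the higher ones were Ndufs3 (137 ± 7.70 against 71.7 CPM) and Ndufs8 (129 ± 34.0 against 69.4). The lower ones were the ATP synthase genes Atp5o (174 against 219 CPM), Atp5g3 (125 against 164) and Atp5j (211 against 271), none of which was called with DESeq2.

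Macrophage-like cells had 8 members higher and 0 lower (27.5% and 8.04%), with medians of 0.23 and 0.21, and with DESeq2 3 were higher and 1 lower. Sdhc, a membrane anchor of complex II, had 113 (HFD-DTR), 94.1 (HFD-WT), 117 (ND-DTR) and 63.5 CPM (ND-WT), against a mean of 42.8 in the other types (log2 1.16, SE 0.13, adjusted p = 1.69e-10). Ndufaf2 averaged 22.3 ± 3.17 against 18.7 CPM (log2 0.89, adjusted p = 0.022), and the log-scale mean includes the 0 of neutrophil-like cells.

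Among non-immune cells, fibroblast-like cells had 9 higher and 10 lower (36.7% and 14.3%), with medians of −0.08 and 0.25. Ndufaf2 averaged 31.8 ± 5.41 against 17.9 CPM (log2 1.5, SE 0.24, adjusted p = 5.79e-07). Cox5a had 220 (HFD-DTR), 145 (HFD-WT), 180 (ND-DTR) and 135 CPM (ND-WT), against a mean of 328 (log2 −0.89, SE 0.14, adjusted p = 2.38e-07). Sdhaf1 averaged 12.9 against 46.0 CPM and Ndufs8, a complex I subunit, 40.3 against 76.8. Lower calls numbered 4 without ND-DTR and 5 without ND-WT. Endothelial-like cells had 7 higher and 11 lower (30.5% and 14.8%), and 6 of the 15 complex V genes were lower. Ndufa8, a complex I subunit, had 327 (HFD-WT), 303 (ND-DTR) and 274 CPM (ND-WT), against a mean of 111 (log2 1.35, SE 0.12, adjusted p = 3.47e-14). Atp5e, the epsilon subunit of the ATP synthase, averaged 288 ± 25.7 against 534 CPM (log2 −1.07, SE 0.13, adjusted p = 9.38e-10), and Atp5g2 231 ± 11.9 against 421. Ndufaf2 averaged 28.3 against 18.2 and Sdhaf1 15.2 against 45.8 CPM. Without normalization factors 10 were higher and 5 lower. HFD-DTR held 16 endothelial-like cells and did not enter. Mesothelial-like cells had 5 higher and 8 lower (30% and 17.2%), against 15 and 1 with DESeq2 and 10 and 3 without normalization factors. Ndufaf3, a complex I factor, averaged 45.0 ± 6.26 against 26.5 CPM, and Ndufaf2 24.7 against 18.5, a difference that was not kept in thinned cells. Uqcrfs1, the Rieske iron-sulfur protein of complex III, averaged 77.2 ± 32.4 against 134 CPM, Atp5e 328 against 531 and Ndufa6 132 against 215.

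Tissue-restricted isoforms set cell types furthest apart. Cox6a2 (ENSMUSG00000030785, chr7:128205435-128206387, minus strand), the heart and skeletal muscle form, had 1226 (HFD-DTR), 713 (ND-DTR) and 872 CPM (ND-WT) in plasmacytoid dendritic-like cells, and 1171 CPM from 5 cells in HFD-WT (adjusted p = 1.27e-21 over the 3 libraries tested). It made up 80.9%, 78.9%, 81.7% and 81.6% of the Cox6a1 and Cox6a2 UMIs in the same order. At least 1 UMI was found in 77 of 96 of these cells (80.2%), against 2 of 1144 T-like cells (0.175%), whose median depths were 1609 to 3961 UMIs by library, against 3323 to 6596 in the 3 tested libraries of plasmacytoid cells. Cox6a1 itself was between 191 and 290 CPM in those 3 libraries, within the range of the other types. Of all Cox6a2 UMIs in the kept cells, 75.0% (445 of 593) lay in these few cells. NK-like cells had 12.8 (HFD-DTR), 7.63 (HFD-WT), 11.6 (ND-DTR) and 29.6 CPM (ND-WT), with UMIs in 28 of 1102 cells (2.54%; adjusted p = 2.97e-09). In HFD-DTR 8 of the 10 UMIs came from 34 cells of cluster 29, and the main cluster, 134 cells, had 1 UMI (2.65 CPM). In B-like cells 0 of 690 Cox6a UMIs were Cox6a2, which allows a share of up to 0.435%. Macrophage-like cells passed the test against the log-scale mean too, at 0.407 to 2.77 CPM, with 1 of 4 libraries in the called direction and a mean of 1.11 against 79.5 CPM in the other types.

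Cox6b2 (chr7:4751792-4753094, minus strand), the testis form, marked mesothelial-like and type 2 conventional dendritic-like cells. Mesothelial-like cells had 28.5 (HFD-DTR), 122 (HFD-WT), 54.3 (ND-DTR) and 68.8 CPM (ND-WT), which was 7.45%, 31.3%, 16.3% and 19.8% of the Cox6b1 and Cox6b2 UMIs (adjusted p = 1.40e-15). It was found in 112 of 222 cells (50.5%). Type 2 conventional dendritic-like cells had 15.9, 49.9, 28.9 and 67.2 CPM in the same libraries, or 3.48%, 11%, 7.46% and 15.9% (adjusted p = 1.57e-14), with UMIs in 145 of 510 cells (28.4%). In both types HFD-DTR was the lowest library. Macrophage-like cells had 1.96 to 3.34 CPM, with UMIs in 56 of 1708 cells (3.28%), and type 1 conventional dendritic-like cells 4.62 to 10.9 CPM. Fibroblast-like cells held 43.0% of all Cox6b2 UMIs at 3.64 to 11.8 CPM and passed the test against the log-scale mean (adjusted p = 0.025), while only 2 of 4 libraries were above the mean of the others.

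Ndufa4l2 (chr10:127514967-127517154, plus strand), a hypoxia-inducible relative of the complex IV subunit Ndufa4, had 30.6 (HFD-DTR), 68.0 (HFD-WT), 18.6 (ND-DTR) and 19 CPM (ND-WT) in fibroblast-like cells (adjusted p = 6.17e-18). Its share of Ndufa4 and Ndufa4l2 UMIs was 9.98%, 20.7%, 5.75% and 6.25%, and it was found in 1547 of 6826 cells (22.7%). Endothelial-like cells had 31.3 (HFD-WT), 23.3 (ND-DTR) and 44.6 CPM (ND-WT; adjusted p = 8.25e-16). In 3 of 1708 macrophage-like cells (0.176%) a UMI was found, and in 0 of 1144 T-like cells, which allows up to 0.262% of cells with a UMI at this depth and sets no limit on cells that express the gene. Endothelial-like cells with at least 2 pericyte markers, 4.59% to 6.27% of cells, held 61.1% to 85.8% of the endothelial Ndufa4l2 UMIs, and without them the level was 5.41 to 13.3 CPM. In fibroblast-like cells such cells held 5.74% to 16.6%. The 11 cells gated as pericytes or smooth muscle had 66 Ndufa4l2 UMIs and 3 of Ndufa4.

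Cox4i2 (chr2:152754173-152765037, plus strand), the lung form, had 10.9 (HFD-WT), 12 (ND-DTR) and 22.1 CPM (ND-WT) in endothelial-like cells, and 68.4% to 88% of these UMIs lay in the cells with pericyte markers. The 11 pericyte-gated cells had 25 UMIs, in 10 of them. Cox7a1, the heart and muscle form of subunit 7a, was at most 8.34 CPM in any tested type. Cox8b, the muscle and brown fat form of subunit 8, was found in endothelial-like (16 UMIs) and fibroblast-like cells (108 UMIs).

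**Figure D3:**
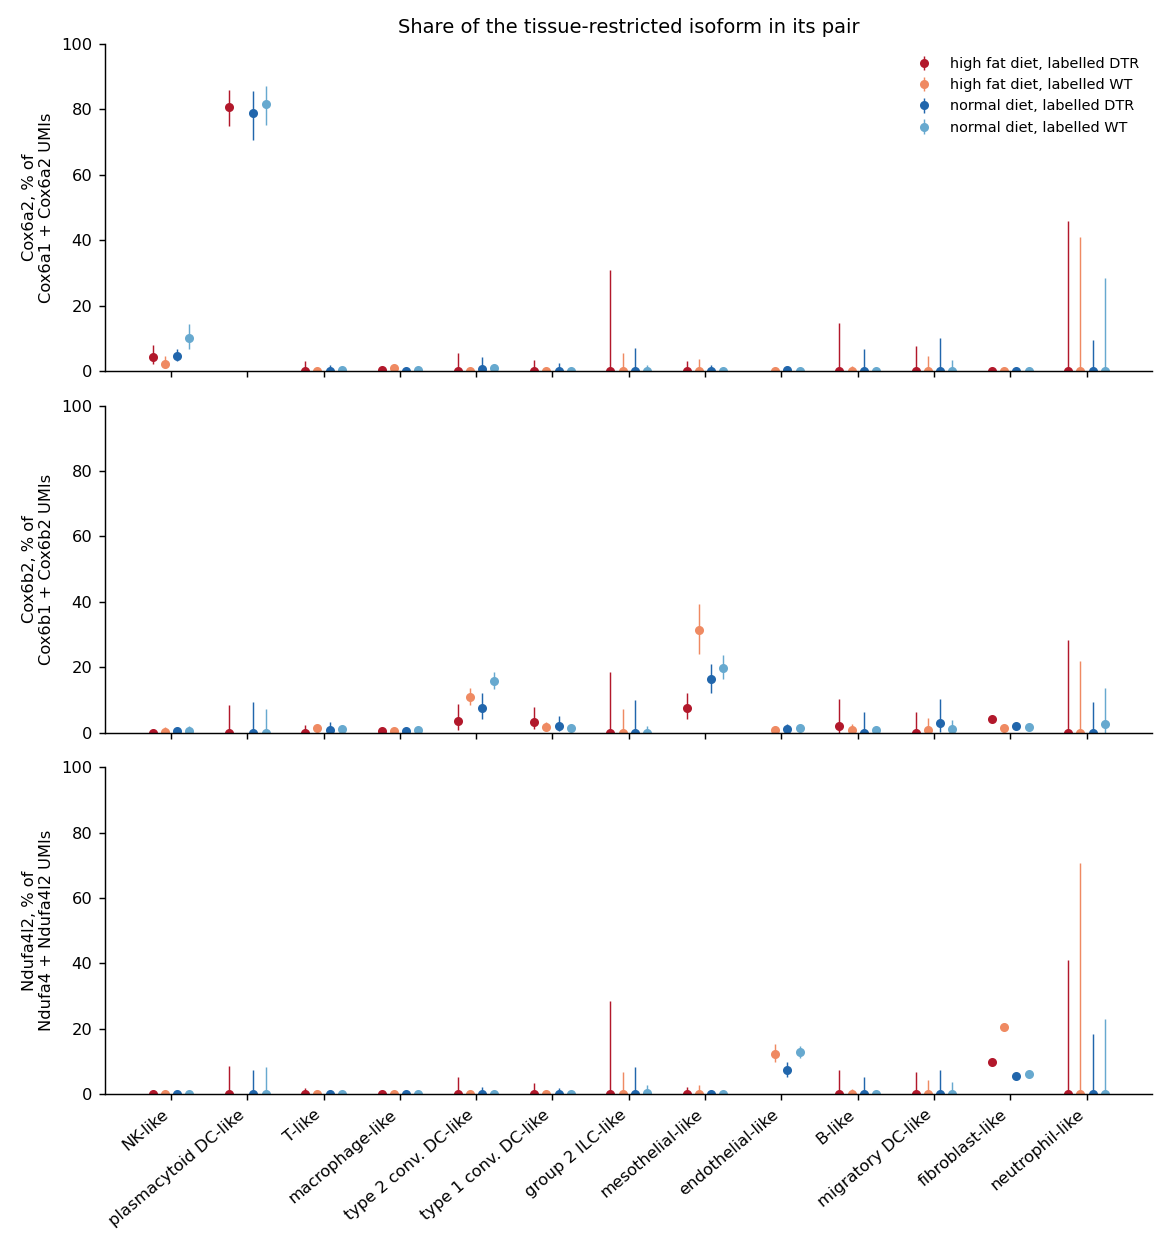
Share of the restricted isoform in the summed UMIs of its isoform pair (percent) by cell type, 1 point per library with its 95% Clopper-Pearson interval, which covers counting error only. Cox6a2 lies at 78.9% to 81.7% in plasmacytoid dendritic-like cells, and Cox6b2 at 7.45% to 31.3% in mesothelial-like cells.

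Atp5g1, Atp5g2 and Atp5g3 encode the same mature c subunit of the ATP synthase and had 264, 339 and 174 CPM over all assigned cells. Atp5g1 had 424 (HFD-DTR), 354 (HFD-WT), 357 (ND-DTR) and 235 CPM (ND-WT) in macrophage-like cells. Migratory dendritic-like cells had 139, 132, 179 and 142 CPM of it in these libraries, and did not overlap with macrophages. Cox7a2l, which helps join complexes III and IV into supercomplexes, had 266, 301, 204 and 384 CPM in macrophage-like cells and 525, 521, 435 and 649 CPM in type 1 conventional dendritic-like cells.

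The 13 subunit genes of mitochondrial DNA were tested in the same fit. In B-like cells all 13 were higher (median log2 1.16), while 5 of the 88 nuclear genes and 20.3% of all genes were. In neutrophil-like cells 10 of the 13 were lower (median −1.18), as were 47 of the 88 and 15.6% of all genes. Among 6 genes for electron carriers, Etfa and Etfb, the subunits of the flavoprotein that feeds electrons from fat oxidation, were called higher in macrophage-like and type 2 conventional dendritic-like cells. Etfa was also higher in fibroblast-like cells (log2 0.83), and Etfb was lower in B-like (−0.86) and neutrophil-like cells (−1.58). Cycs, cytochrome c, was higher in type 1 (log2 1.32) and type 2 conventional dendritic-like (0.78) and endothelial-like cells (0.64). It was lower in neutrophil-like (−1.61), mesothelial-like (−0.90) and fibroblast-like cells (−0.59). Of 14 citric acid cycle genes, 3 were higher and 0 lower in fibroblast-like, mesothelial-like and both conventional dendritic types, where 36.7%, 30%, 20.5% and 20.2% of all genes were higher, so these shares were near or below the background. In neutrophil-like cells 0 were higher and 5 lower, while 15.6% of all genes were lower. Of 6 tested coupling and transport genes, Ucp2, a carrier of the uncoupling protein family, was higher in type 1 conventional dendritic-like (log2 2.10), migratory dendritic-like (1.51), macrophage-like (1.49), type 2 conventional dendritic-like (1.01) and plasmacytoid dendritic-like cells (0.77). It was lower in fibroblast-like (−4.07), mesothelial-like (−1.03), endothelial-like (−1.01) and NK-like cells (−0.60). Of 21 tested assembly factors outside the naming rule, NK-like cells had 6 higher and 0 lower (all genes 21.2% and 11.5%), and neutrophil-like cells 1 and 5 (13.5% and 15.6%). Of 6 tested regulators of mitochondrial genes, 3 were higher and 0 lower in NK-like (all genes 21.2% and 11.5%) and in T-like cells (20.5% and 5.68%).

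Within macrophage-like cells, those with at least 3 cell cycle markers were set against those with none. Cycling cells had 19591 (HFD-DTR), 19967 (HFD-WT), 19005 (ND-DTR) and 19968 CPM (ND-WT) of the 97 genes, against 18817, 16705, 18489 and 16855 CPM in the others, higher in 4 of 4 libraries. Of 87 members 1 was called higher and 0 lower by edgeR, while 8.21% of all genes were higher and 6.68% lower. At an adjusted p under 0.05 without the fold threshold there were 2 and 0. The called member was Ndufaf2, with 35.1, 27.3, 33.3 and 20.2 CPM in cycling cells, against 20.4, 17.2, 15.4 and 16.8 CPM (log2 0.62, adjusted p = 0.036). Cycling cells held 15786 to 41689 UMIs per cell, against 7558 to 11053, and the part of depth in this was not tested beyond thinning, in which 0 members were called. Macrophage-like cells with both Trem2 and Gpnmb, genes of lipid-laden macrophages, were set against cells with neither. Of 87 members 3 were higher and 0 lower (all genes 9.46% and 9.56%). At an adjusted p under 0.05 without the fold threshold these counts were 3 and 1. Ndufs7, a complex I subunit, had 245, 153, 196 and 201 CPM in double-positive cells, against 171, 106, 114 and 82.7 CPM in double-negative cells (log2 0.63). Ndufs3 had 115, 99.0, 122 and 81.7 CPM, against 76.9, 68.1, 60.7 and 49.2 (log2 0.59), and Ndufaf3 48.2, 32.6, 33.6 and 40.8 CPM, against 36.3, 17.8, 15.9 and 12.8 (log2 0.78). All 3 were higher in the double-positive cells of each of the 4 libraries. Double-positive cells held 9482 to 33130 UMIs per cell, against 6103 to 9612, and 0 members were called in thinned cells.

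Diet was compared in the libraries labelled WT, HFD over ND, in 9 cell types with at least 50 cells in each library, over genes with at least 50 UMIs, counting ratios past 1.5-fold. The members' median log2 ratio was above that of all genes in 5 of the 9. In fibroblast-like cells 2 of 91 members were higher and 0 lower (all genes 6.44% and 12.1%), and the summed level was 12472 against 12267 CPM. The median was 0.04 for the members and −0.08 for all genes. Scaled by TMM (edgeR's normalization between libraries), the members' median was 0.16. TMM adds the same shift to all genes of a type, here 0.12, so the members' distance from all genes does not change. Ndufa4l2 had 68.0 CPM in HFD against 19 in ND (log2 1.84, interval 1.63 to 2.07). Within the main HFD-WT cluster it had 82.1 CPM in HFD against 40.2 in ND. Cox8b followed with 49 against 16 UMIs (log2 0.65, −0.19 to 1.56) and Ndufaf6 with 0.48. Uqcr11, a complex III subunit, was at −0.34 and Ndufb7, a complex I subunit, at −0.30. In macrophage-like cells 9 of 86 were higher and 0 lower (16.3% and 9.4%), and the summed level was 18045 against 17132 CPM. The highest were Ndufaf6 (50 against 4 UMIs, log2 1.5), Ndufaf4 (1.00) and Sdhaf1 (0.74), and the lowest Sdhaf3 (−0.45), Cox7a2l (301 against 384 CPM, −0.35) and Ndufa6 (−0.34). In endothelial-like cells 0 of 86 were higher and 2 lower (4.91% and 7.91%), the median was −0.15 against −0.00 for all genes, and the summed level was 14736 against 16180 CPM. Adipocyte transcripts were at 195 CPM in HFD-WT against 2324 in ND-WT, and their part in the result was not tested. ND-DTR, also on ND, had a summed level of 14845 CPM, near HFD-WT, and 1892 CPM of adipocyte transcripts, near ND-WT. Endothelial-like cells of ND-DTR over ND-WT had a member median of −0.12 against 0.03 for all genes, without a difference in diet. Pericyte markers in these cells were at 225 CPM in HFD-WT against 472 in ND-WT. The lowest members were Cox4i2 (10.9 against 22.1 CPM, log2 −1.02), Ndufaf2 (−0.59) and Ndufab1, the mitochondrial acyl carrier protein (−0.56). The highest were Ndufaf4 (0.50), Sdhaf3 (0.47) and Ndufa8 (327 against 274 CPM, 0.25). Cells with pericyte markers held 22 of the 25 Cox4i2 UMIs in HFD-WT and 74 of the 87 in ND-WT. Without these cells Cox4i2 had 1.43 against 3.71 CPM, from too few UMIs for a comparison.

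In the libraries labelled DTR the members' median was above that of all genes in 4 of 8 types, HFD over ND. In fibroblast-like cells 8 of 91 were higher and 0 lower (21.3% and 10.0%), the medians were 0.23 and 0.14 (0.13 for the members under TMM scaling), and the summed level was 14875 against 12881 CPM. Cox6b2 had 11.8 against 4.66 CPM (log2 1.33, 0.96 to 1.72), Sdhaf1 22.5 against 10.0 (1.17, 0.92 to 1.43) and Ndufa4l2 30.6 against 18.6 (0.72, 0.53 to 0.91). The lowest were Atp5s (−0.25) and Atp5g3 (159 against 189 CPM, −0.25). The ratio of Ndufa4l2 in HFD over ND was above 0 under both labels, in fibroblasts whose main clusters differed by library. Neutrophil-like cells had 8038 against 12490 CPM in sum, with a median of −0.50 over 14 measured members against −0.10 for all genes. Median depth was 786 UMIs in HFD against 1338 in ND, fibroblast markers summed to 880 against 280 CPM and macrophage markers to 152 against 722 CPM, and their part in the result was not tested.

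The libraries labelled DTR were set over those labelled WT on ND, and the members' median was above that of all genes in 3 of 10 types. In macrophage-like cells 15 of 85 were higher and 2 lower (30.8% and 9.37%), with medians of 0.24 and 0.29 and sums of 18546 against 17132 CPM. Scaling by TMM shifted these ratios by −0.23, which leaves a member median of 0.01. Their main clusters were 3 (ND-DTR, 61.7%) and 7 (ND-WT, 56.7%). The highest were Ndufaf6 (57 against 4 UMIs, log2 2.38), Sdhaf1 (26.3 against 8.36 CPM, 1.65) and Ndufaf4 (1.59). The lowest were Cox7a2l (204 against 384 CPM, −0.91, −1.06 to −0.77), Ndufa1, a small complex I subunit (79.4 against 120 CPM, −0.59), and Uqcrh (−0.57). In fibroblast-like cells 1 of 90 was higher and 0 lower (15.7% and 8.62%), and the median of 0.09, against 0.11 for all genes, was −0.00 under TMM. Ndufaf6 (0.88), Ndufb6 (0.52) and Ndufs1 (0.49) were highest, and Cox7a2l (203 against 264 CPM, −0.38), Ndufs8 (−0.33) and Ndufb10 (−0.28) lowest. In type 2 conventional dendritic-like cells 13 of 77 were higher and 2 lower (17.7% and 15.3%), with medians of 0.33 and 0.06 and sums of 18458 against 15577 CPM; the TMM median was 0.15. The highest were Ndufs7 (0.94), Ndufs3 (0.94) and Ndufv1 (0.85), complex I core subunits, and the lowest Cox6b2 (28.9 against 67.2 CPM, −1.22, −2.10 to −0.45), Ndufa5 (−0.63) and Atp5e (−0.21). In type 1 cells 9 of 79 were higher and 2 lower (13.8% and 8.23%), with sums of 18584 against 16419 CPM and medians of 0.22 and 0.12. The members' median was 0.03 under TMM. Ndufaf3 (1.13), Uqcrc1, a core protein of complex III (0.88), and Ndufv2 (0.80) were highest, and Ndufaf2 (6 against 62 UMIs, −1.27), Ndufaf8 (−0.69) and Cox7a2l (−0.58) lowest. Sums also depend on what else fills a library, and ribosomal protein CPM was lower in ND-DTR in 12 of 13 types. Without mitochondrial DNA-encoded and ribosomal protein genes in the totals, macrophage-like sums were 21862 against 20976 CPM. Type 2 sums were then 24546 against 20833 and type 1 sums 24541 against 23431 CPM.

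On HFD, labelled DTR over labelled WT, the members' median was above that of all genes in 3 of 6 types. In fibroblast-like cells 15 of 92 were higher and 2 lower (33.8% and 7.64%), with medians of 0.31 and 0.33 and sums of 14875 against 12472 CPM. Scaling by TMM shifted the ratios by −0.31 and gave a member median of −0.01. Cell cycle markers summed to 161 CPM in HFD-DTR against 16 in HFD-WT, with 127 against 6 cycling cells. Cells without cycle markers had 14589 CPM of the 97 genes in HFD-DTR against 12374 in HFD-WT, at 13312 against 11145 UMIs per cell. The part of cycling cells, depth and main cluster in the result was not tested. Cox6b2 had 11.8 against 3.64 CPM (log2 1.69, 1.33 to 2.07), Sdhaf1 22.5 against 9.76 (1.21) and Sdhaf2 31.0 against 16.5 (0.90). Ndufa4l2 had 30.6 against 68.0 CPM (−1.15, −1.27 to −1.04), Cox8b 23 against 49 UMIs (−2.10), and Atp5c1 was at −0.30. In macrophage-like cells 7 of 88 were higher and 1 lower (27.0% and 7.48%), with sums of 19150 against 18045 CPM. Their median of 0.13, against 0.24 for all genes, turned to −0.12 under TMM, which shifted all genes by the same −0.25. The main clusters were 6 (HFD-DTR, 47.8%) and 7 (HFD-WT, 35.9%), and macrophage markers summed to 4768 CPM in HFD-DTR against 8873 in HFD-WT; the part of this in the result was not tested. Sdhaf1 had 35.8 against 14 CPM (1.36, 1.05 to 1.68), Sdhaf2 45.7 against 21.1 (1.12) and Ndufaf3 45.8 against 25 (0.87). The lowest were Ndufa4, a complex IV subunit (239 against 364 CPM, −0.60), Ndufa1 (70.0 against 98.5, −0.49) and Ndufc2 (−0.37). In NK-like cells 11 of 78 were higher and 1 lower (15.7% and 9.38%), with sums of 22311 against 19888 CPM and medians of 0.21 and 0.07. The members' median was 0.07 under TMM. Cell cycle markers summed to 1010 CPM in HFD-DTR against 264 in HFD-WT, and the main cluster held 70.2% against 95.8% of the cells; their part in the result was not tested. Sdhaf1 had 69.1 against 14.2 CPM (2.29, 1.39 to 3.29), Ndufa9 was at 0.94 and Ndufs1 at 0.79, and the lowest were Ndufa1 (80.6 against 125 CPM, −0.64), Ndufa4 (−0.34) and Cox6a1 (−0.27). Mitochondrial DNA-encoded CPM was lower in HFD-DTR in 11 of 11 types. With mitochondrial DNA-encoded and ribosomal protein genes left out of the totals, fibroblast-like sums were 16886 against 14362 CPM. Macrophage-like sums were then 22100 against 21598 and NK-like sums 30653 against 26245 CPM.

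**Figure D4:**
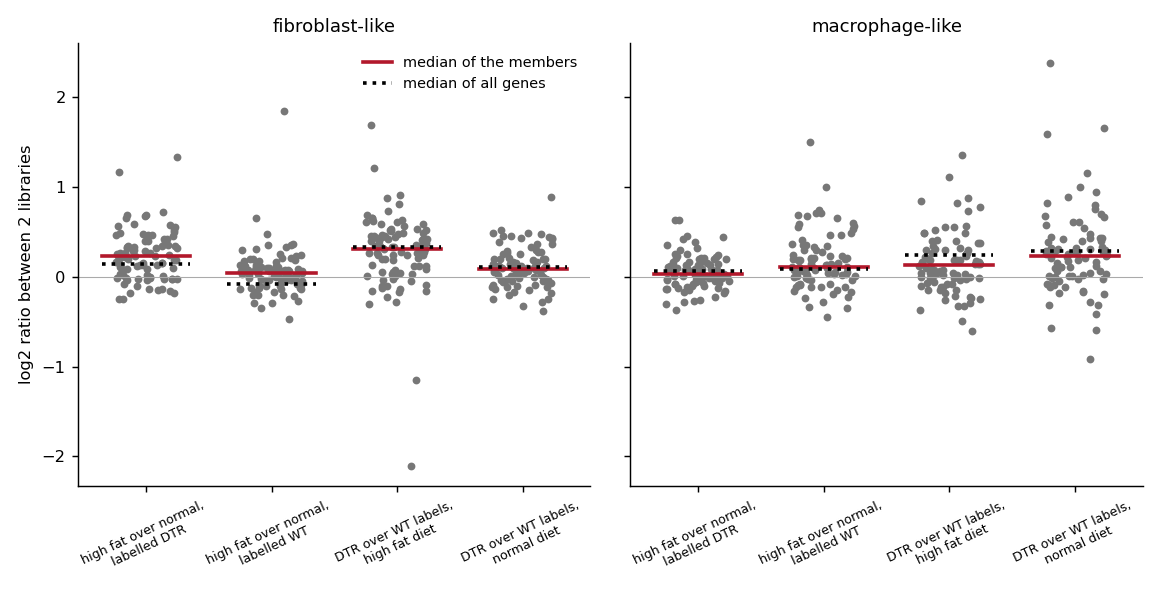
Log2 ratios between libraries in fibroblast-like and macrophage-like cells for the 4 comparisons, 1 point per member, with the median of the members (line) and that of all genes (dots). In fibroblast-like cells on HFD (labelled DTR over labelled WT) these are 0.31 and 0.33.

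Sdhaf1 was higher in the library labelled DTR than in that labelled WT in 10 of 11 types on HFD and 12 of 13 on ND. Ndufa1, summarised across types after its values were seen, was lower in 11 of 11 and 12 of 13. Cox7a2l was lower in 12 of 13 on ND and in 5 of 11 on HFD. The types of 1 library share its preparation, so these counts describe the 4 libraries. The counts for Sdhaf1 include types in which it was already named above for its high ratio, and are no independent check. The mitochondrial DNA-encoded genes were set beside the nuclear ones. Macrophage-like cells had 23602 CPM of the 13 genes in HFD-DTR and 38524 in HFD-WT, with 11 of 13 past 1.5-fold lower (all genes 7.48%). On ND they had 27342 CPM in ND-DTR against 36963 in ND-WT, with 3 of 12 lower (all genes 9.37%). Fibroblast-like cells had 25114 CPM in HFD-DTR against 32233 in HFD-WT, and 36031 in ND-DTR against 35999 in ND-WT. The ratio of nuclear to mitochondrial DNA-encoded UMIs was 0.811 (HFD-DTR), 0.468 (HFD-WT), 0.678 (ND-DTR) and 0.463 (ND-WT) in macrophage-like cells. It was highest in HFD-DTR in 10 of the 11 types present in all 4 libraries. Cells are filtered on mitochondrial UMIs. With at most 5% allowed, macrophage-like cells had 22979 CPM in HFD-DTR against 33352 in HFD-WT, and with at most 20%, 23751 against 39764. Of the assembly factors outside the naming rule, 12 of 25 were past 1.5-fold higher and 0 lower in macrophage-like cells of HFD-DTR over HFD-WT (all genes 27.0% and 7.48%), and 13 of 26 and 0 in fibroblast-like cells (33.8% and 7.64%).

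**Figure D5:**
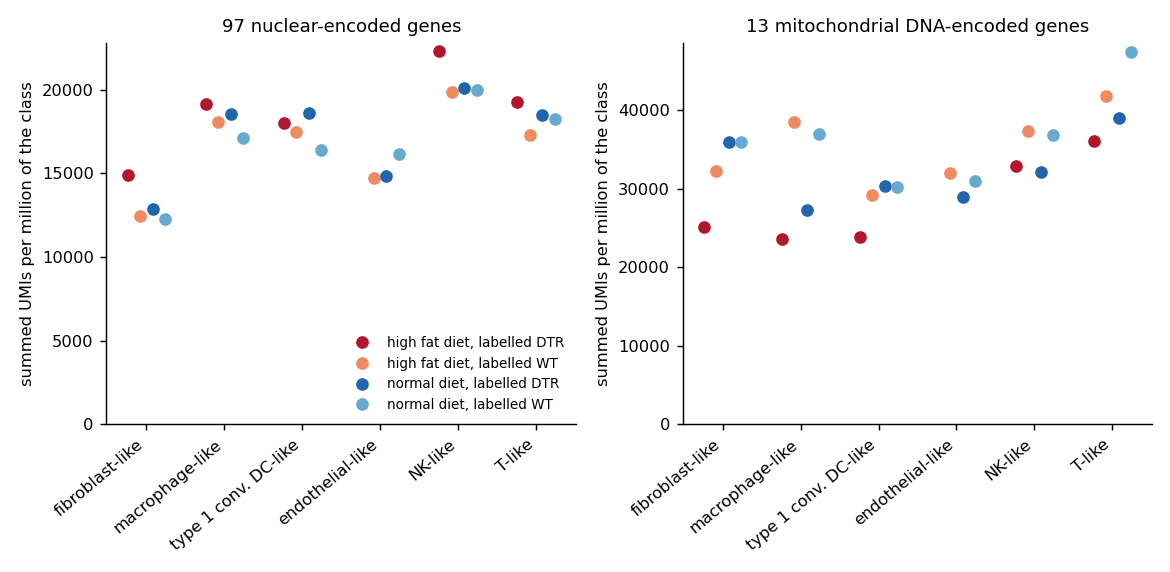
Summed level of the nuclear members and of the 13 mitochondrial DNA-encoded genes (CPM) in 6 cell types, 1 point per library. In macrophage-like cells the mitochondrial DNA-encoded level is 23602 CPM in HFD-DTR and 38524 in HFD-WT.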

How the data were processed

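The file deposited by the authors gives unnormalized UMI counts of each gene in each barcode, with the 4 libraries in 1 matrix. Reads were processed with Cell Ranger 3.1.0 and mm10, per the submitters' processing notes. The 32 sample records are 8 runs (4 indices, 2 lanes) of 1 library per group. Barcode suffixes were mapped to libraries by the order of the aggregation list, which no other file states. Subsampling of reads at pooling is not stated in the labels.

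Barcodes under 300 genes or over 10% mitochondrial UMIs were dropped, and doublets called by Scrublet (scanpy 1.11.5, expected rate 5.4%) were removed. A cell was assigned to a type with at least 3 of its markers detected and at least 2 more than of any other type; these thresholds were chosen after the markers. Clusters (2000 variable genes, 30 components, 15 neighbours, resolution 1.5) served as a check and an alternative. UMIs summed per type and library were tested with edgeR 4.0.16 in R 4.3.3, with DESeq2 1.42.0 as an alternative. Fitted fold changes of genes with libraries at 0 depend on the prior count, so levels are given for these. Intervals are exact Poisson (levels), conditional binomial (ratios) and Clopper-Pearson (shares), at 95%, for counting error only. With 1 library per group no test between groups was possible. On simulated counts the macrophage contrast found 99 of 100 genes changed 2-fold and 79 of 100 changed 1.5-fold, with 14 false calls among 9748 genes. The contrast of cycling against other macrophages found 94 of 100 changed 2-fold but only 27 of 100 changed 1.5-fold, with 6 false calls among 9493 genes.

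The members and lists were chosen with earlier results of these data known. Named are the isoform pairs, Cox7a2l, Atp5g1 to Atp5g3, the most abundant member of each complex, up to 3 called members with the highest and 3 with the lowest fold change per type, and the 3 highest and 3 lowest ratios per type described between libraries. A planned comparison of lipid-associated macrophages by a marker score had at least 20 cells of both kinds in 1 library only and was replaced by Trem2 and Gpnmb, chosen after seeing the data. One member that the naming rule selects is not reported here. Gene coordinates are GRCm38.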

Additional observations from a re-analysis of the deposited data

Results flagged for a closer look

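Sdhb, the iron-sulfur subunit of complex II, moved past 1.5-fold in opposite directions with diet in B-like cells. In the libraries labelled DTR it had 72.2 CPM in HFD against 131 in ND (12 against 38 UMIs), a log2 ratio of −0.86 with an interval of −1.94 to 0.10. In those labelled WT it had 108 CPM in HFD against 69.7 in ND (100 against 160 UMIs), a log2 ratio of 0.63 with an interval of 0.25 to 1.00. The difference between the labels was not tested.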

How the results depend on the processing

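No paired analysis was possible because each group has 1 library. With every cell at equal weight, the members' median was above that of all genes in 3 of 9 types for diet labelled WT (5 as reported), 7 of 8 for diet labelled DTR (4) and 5 of 6 for labelled DTR against WT on HFD (3). Calls between cell types numbered 189, against 104 in thinned cells, 144 with DESeq2, 131 with at least 1000 genes, 236 with cluster types, 191 without the library block and 152 to 188 when 1 library was left out. In cycling macrophages, with 1 member called as reported, 0 were called with DESeq2, 2 without normalization factors, 0 in thinned cells and 0 to 1 without 1 library. For Trem2 and Gpnmb, with 3, the counts were 1 with DESeq2, 0 in thinned cells and 0 to 2 without 1 library. The cause of these changes was not tested. Shares of all genes called were counted only in the reported setting, so calls of members under other settings have no background beside them. Ndufaf2 in mesothelial-like cells was at −0.28 in thinned cells, against 1.00. Of the other values of named members between cell types, 619 kept their direction and their side of the threshold and 105 lost the call. The ratios between libraries were counted together with the contrasts within macrophages. Of these values 735 were unchanged, 62 moved and 19 were weaker. For a ratio, unchanged means within its counting interval. Ratios between libraries carry no test, so a lost call can apply only to the macrophage contrasts. Depth limits neutrophil-like cells most, which gave no value at 1000 genes or in thinned cells.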
